A study of Gallus gallus with 6 samples.

Results

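The 69 genes described here encode proteins of the mitochondrial ribosome and were picked by name, as every row of the expression table named MRPL or MRPS followed by a digit, out of 20943 rows. They comprise 43 MRPL and 26 MRPS genes. Expression was measured in pectoral muscle taken from female broiler chickens, a fast-growing meat type, when they were 35 days of age. Control birds received a basal diet with 0 IU/kg of supplementary vitamin E, and treated birds the same basal diet with 100 IU/kg of vitamin E as DL-α-tocopheryl acetate, the esterified form of the lipid-soluble antioxidant α-tocopherol. Each group had 3 poly(A)-selected libraries. The labels describe 3 tissue samples per group without saying whether they came from separate birds or pens, so p-values cover only the spread among the libraries, which may be technical.

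The mitochondrial ribosome sits in the mitochondrial matrix and translates the few proteins that mitochondrial DNA encodes, which are core subunits of the respiratory chain and of ATP synthase. Its RNA comes from mitochondrial DNA, while all of its proteins are encoded in the nucleus, made in the cytosol and imported. One set of these proteins has counterparts in bacterial ribosomes, and another is found only in mitochondria, where much of it lies at the surface. The names record the subunit in which a protein was first placed. In mammalian structures MRPS18A belongs to the large subunit in spite of its name, and MRPS36 is a part of the 2-oxoglutarate dehydrogenase complex rather than of the ribosome. Pectoral muscle of the chicken is made almost wholly of fast glycolytic fibres, which hold few mitochondria.

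Values are FPKM, that is, fragments per kilobase of a gene's length, divided by the depth of each library, so levels of different genes can be set side by side. The whole reads behind them were recovered from the FPKM steps. The libraries held between 14161399 and 25477341 reads, the most in control replicate 1, and that library also stood apart on the first principal component of all tested genes, at -34.4 against -14.2 to 17.4 in the other 5. The muscle identity was plain, with a summed level of 7 fast-fibre markers between 48755 and 66632 FPKM, against 0.404 to 1.25 FPKM for 3 Schwann cell markers. Summed levels of 6 fibroblast markers were between 1499 and 1734 FPKM in controls and between 2177 and 3041 FPKM with vitamin E, with 5 of 6 higher at an unadjusted p under 0.05, against 5.97% of all tested genes, and 0 of 6 after adjustment. Those of 4 erythrocyte markers were between 35.4 and 73.7 FPKM and between 77.1 and 99.1 FPKM, with 2 of 3 tested higher at that p. Those of 6 endothelial markers were between 133 and 185 and between 160.5 and 214 FPKM, with 1 of 6 higher at that p. Those of 6 adipocyte markers were between 142 and 226 and between 242 and 375 FPKM, with 1 of 5 tested higher at that p. FABP4, the largest part of each adipocyte sum, overlapped between the groups. Sums of 2 satellite cell markers overlapped, and 1 of the 2 was lower at that p, against 3.14% of all tested genes. In whole tissue, fewer cells of a type and less RNA per cell cannot be told apart.

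Mitoribosomal transcripts were found at mostly moderate levels. Of the 69 genes, 68 averaged 1 FPKM or more and were tested. The median member stood at 22.9 FPKM, where the median of all 11320 tested genes was 6.70 FPKM, and 65 of the 68 lay above that median. There were 55 members between 10 and 50 FPKM, 8 above 50 and 5 under 10, and the highest was 57.9 times the lowest. These levels rested on between 46 and 2858 reads per gene and library, with at least 100 reads in every library for 64 of the 68.

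**Figure D1:**
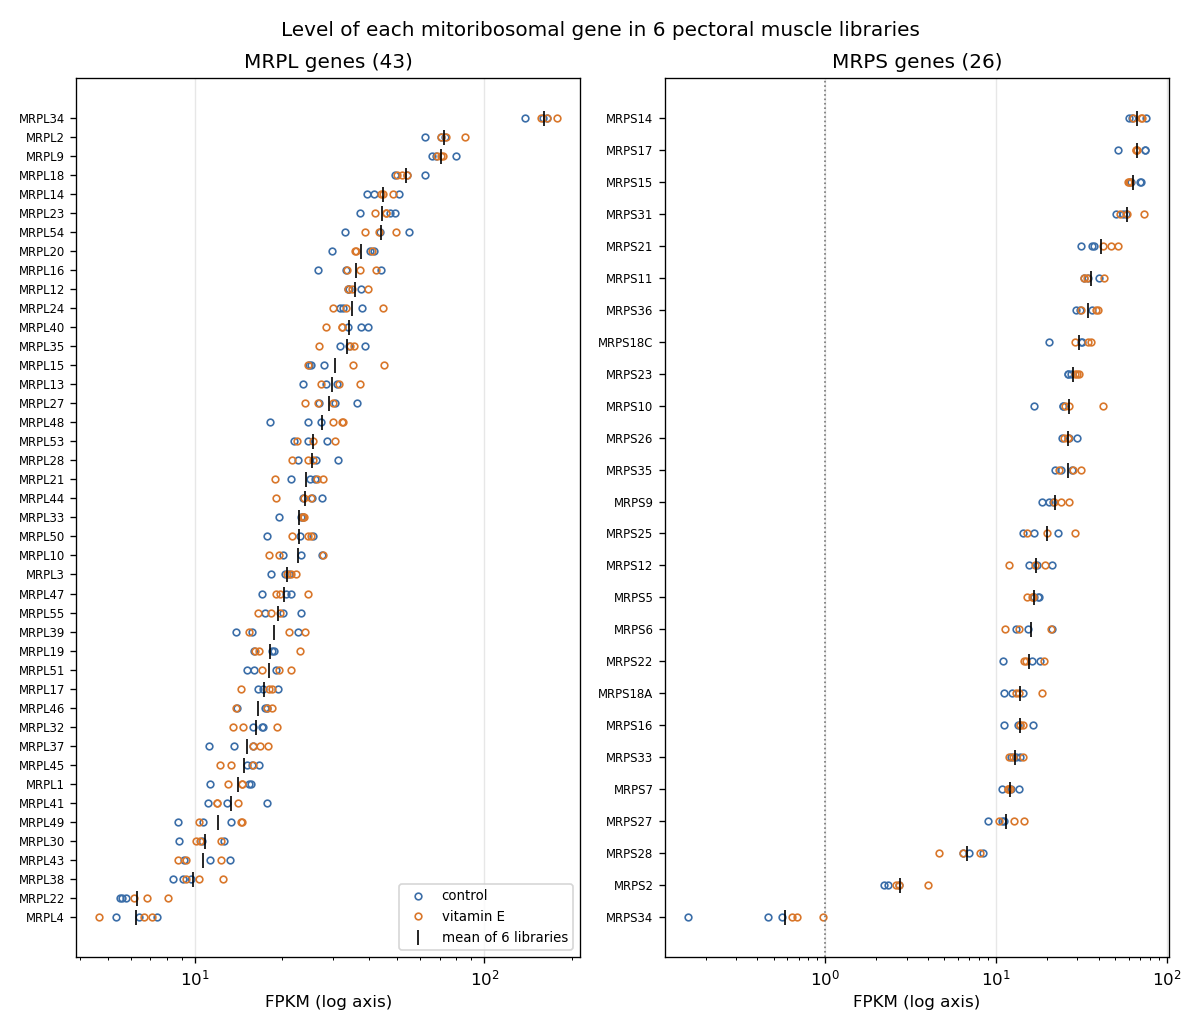
FPKM (log axis) of the 43 MRPL genes (left) and 26 MRPS genes (right) in 3 control and 3 vitamin E libraries, ordered by the mean of the 6 libraries (black ticks). MRPL34 stands above all other members at 160.0 FPKM, most genes lie between 10 and 50, and MRPS34 alone falls left of the dotted line at 1 FPKM.

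MRPL34, the counterpart of a small bacterial large-subunit protein, was the most abundant, at 138, 164 and 159 FPKM in controls and 178, 164 and 157 FPKM with vitamin E. Its groups overlapped, as did those of the next in order, MRPL2, MRPL9 and MRPS14, whose mean levels were 72.6, 70.7 and 67.3 FPKM. MRPL2, a protein near the catalytic centre of the large subunit, had 73.0, 70.6 and 62.5 FPKM in controls and 70.6, 85.4 and 73.6 FPKM with vitamin E. These ranges also overlapped with those of MRPL9 (65.8 to 79.5 FPKM over the 6 libraries) and of MRPS14 (60.0 to 75.4 FPKM), a protein of the head of the small subunit. The order among these 3 genes is therefore not separated by the spread between libraries, whereas every library of MRPL34 lay above every library of all other members.

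At the other end, MRPS2 had 2.21, 2.34 and 2.72 FPKM in controls and 2.61, 2.71 and 4.00 FPKM with vitamin E. The opposite strand of this locus carries an overlapping row, C9ORF116, and reads of the pair cannot be told apart without strand. The authors' annotation describes that row too as mitochondrial S2, and it had 0.144 to 0.877 FPKM. The positions of 19 of the 69 members overlap another gene, and those of 15 overlap a gene on the opposite strand. Not all of these are marked in the text. MRPL4, whose protein lines the tunnel through which the new chain leaves, ranged from 4.68 to 7.40 FPKM and MRPL22, another tunnel protein, from 5.52 to 8.09 FPKM. MRPS28, the counterpart of a part of bacterial S1, ranged from 4.63 to 8.39 FPKM. The levels of MRPL4, MRPL22 and MRPS28 overlapped across libraries.

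The untested member was MRPS34, a mitochondria-specific protein of the small subunit. It had 0.462, 0.158 and 0.558 FPKM in controls and 0.640, 0.977 and 0.682 FPKM with vitamin E, which came from 26, 6, 20, 20, 32 and 23 reads. All vitamin E libraries were above all controls at this low depth.

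Genes named for either subunit had similar transcript levels. The mean level over the 43 MRPL genes was between 26.4 and 31.4 FPKM per library, and that over the 25 tested MRPS genes was between 23.8 and 30.1 FPKM. The ratio of the MRPL to the MRPS mean was 1.11, 1.08 and 1.07 in controls and 1.04, 1.04 and 1.07 with vitamin E. With members placed by the structure, 44 in the large and 23 in the small subunit and MRPS36 in neither, it was 1.08, 1.06 and 1.05 and then 1.02, 1.02 and 1.05. The median MRPL gene was above the median MRPS gene in all 3 controls and in vitamin E replicate 3 but below it in vitamin E replicates 1 and 2, at 24.6 against 26.3 FPKM and 21.5 against 25.0 FPKM. The means and their ratios include MRPL34, at 138 to 178 FPKM, and were not computed without it. No test was made of these scores over chosen members.

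Vitamin E was accompanied by no called change in any mitoribosomal gene. With limma on log2(FPKM + 1), 0 of 68 members passed a Benjamini-Hochberg adjusted p of 0.05, where 0% of all tested genes were called, and the smallest adjusted p of a member was 0.424. An unadjusted p under 0.05 was reached by 2 members (2.94% of the 68), against a background of 9.11% of all tested genes. Both were higher with vitamin E and 0 were lower, where the background was 5.97% higher and 3.14% lower. The groups did not overlap in 7 members that were higher and 3 that were lower, against a background of 8.86% and 5.72% and of 14.6% in either direction. These shares are near or below the background and are no result about the members. The median log2 difference was 0.048 over the members and 0.019 over all tested genes, and 44 members had a positive difference, which is 64.7% against 54.2% of all tested genes.

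The intervals, which are per gene and not adjusted for the number of genes, show how closely each difference was estimated. The 95% interval of the log2 difference lay within -1 and 1, a 2-fold change of FPKM + 1 in either direction, for 67 of the 68 members (98.5%, against 89.2% of all tested genes). The exception was MRPS10, with an interval from -0.072 to 1.03. It lay within -0.5 and 0.5 for 38 members (55.9%, against 47.5% of all tested genes). The median half-width of the interval was nearly the same, at 0.35 over the members and 0.36 over all tested genes. The differences themselves ran from -0.25 to 0.48.

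**Figure D2:**
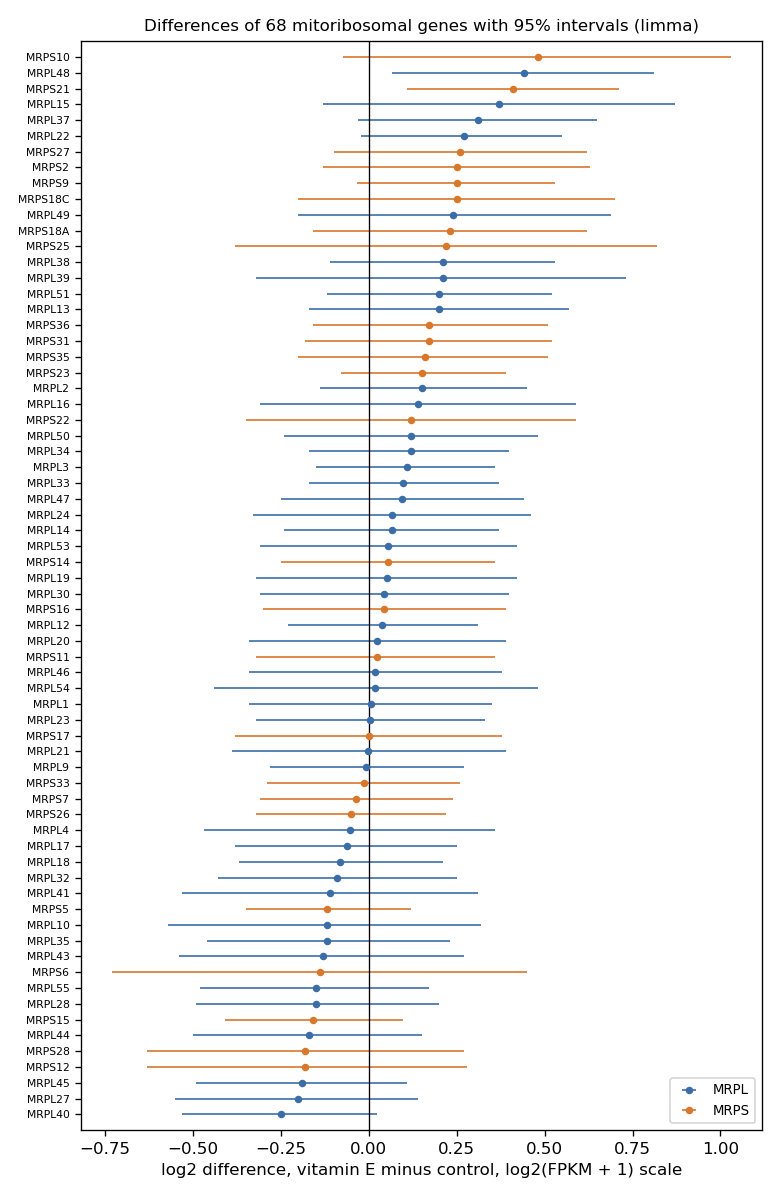
Log2 difference, vitamin E minus control on the log2(FPKM + 1) scale, of the 68 tested members with 95% intervals from limma, ordered by size and coloured by MRPL or MRPS name. The interval excludes 0 for MRPL48 and MRPS21 before adjustment, and all differences lie between -0.25 and 0.48.

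Among the small-subunit genes, MRPS21 had the smallest p. This gene (chromosome 25, 2381556 to 2383129) encodes the counterpart of bacterial S21 and, at 441 bases, had the shortest length of the members. It had 31.4, 37.8 and 36.4 FPKM in controls and 46.9, 42.5 and 51.8 FPKM with vitamin E. All vitamin E libraries were above all controls, and the log2 difference was 0.41 ± 0.13 (SE), with an unadjusted p of 0.0151 and an adjusted p of 0.424 in limma. Without vitamin E replicate 3 the unadjusted p was 0.0572. MRPS9, whose protein reaches from the head of the subunit toward the tRNA, had 18.7, 20.5 and 21.5 FPKM in controls and 24.1, 26.7 and 22.0 FPKM with vitamin E. Here too the groups did not overlap, with a difference of 0.25 ± 0.12.

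MRPS10, another protein of the head, had 16.7, 24.7 and 24.7 FPKM in controls and 42.2, 26.7 and 25.5 FPKM with vitamin E. The groups were separate, but 1 low control library and 1 high vitamin E library held most of the distance, and the difference of 0.48 ± 0.23 was the largest of all members. Leaving out the low control library, replicate 1, gave 0.30, and leaving out the high vitamin E library, replicate 1, gave 0.25. MRPS27, a pentatricopeptide repeat protein, had 9.03, 11.2 and 10.9 FPKM against 14.7, 12.8 and 10.5 FPKM, with overlapping groups and a difference of 0.26 ± 0.15. It overlaps PTCD2 on the opposite strand. MRPS23, also found only in mitochondria, stood between 26.4 and 27.4 FPKM in controls and between 29.1 and 30.7 FPKM with vitamin E, a narrow separation with a difference of 0.15.

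Among the MRPS genes that were lower with vitamin E, the lowest difference was -0.18. MRPS28 had this value, at -0.18 ± 0.19 (SE) with overlapping groups. MRPS15, the counterpart of bacterial S15, had 61.5, 69.8 and 70.9 FPKM in controls and 60.6, 60.3 and 59.7 FPKM with vitamin E, with separate groups and a difference of -0.16 ± 0.11. MRPS5, whose bacterial counterpart lies at the entry of the mRNA, had 16.7, 17.8 and 17.7 FPKM against 15.2, 16.4 and 16.3 FPKM, a difference of -0.12 ± 0.10. Both unadjusted p-values were above 0.05, at 0.189 and 0.291 in limma.

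Of the large-subunit genes, MRPL48 had the smallest p. Its protein is found only in mitochondria and forms part of the central protuberance, the crest of the large subunit, and the gene lies on chromosome 1, 195714063 to 195723897. It had 18.2, 27.2 and 24.5 FPKM in controls and 32.6, 32.3 and 29.9 FPKM with vitamin E. The groups were separate, and the log2 difference was 0.44 ± 0.16 (SE; unadjusted p = 0.0273 and adjusted p = 0.479 in limma). Without control replicate 1, its lowest library, the difference was 0.28 and the unadjusted p in limma was 0.0586. Without vitamin E replicates 1 or 2 it was 0.0707 or 0.0729.

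Another protein of the protuberance, MRPL40, had the smallest p among the members that were lower. Its gene on chromosome 15 (661166 to 664113) had 37.5, 33.9 and 39.6 FPKM in controls and 32.3, 32.2 and 28.3 FPKM with vitamin E. All vitamin E libraries were below all controls, with a difference of -0.25 ± 0.12 and an unadjusted p of 0.0677 (adjusted p = 0.571 in limma). Other members of the protuberance had overlapping groups, with differences of 0.018 for MRPL46, -0.081 for MRPL18 and 0.21 for MRPL38.

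**Figure D3:**
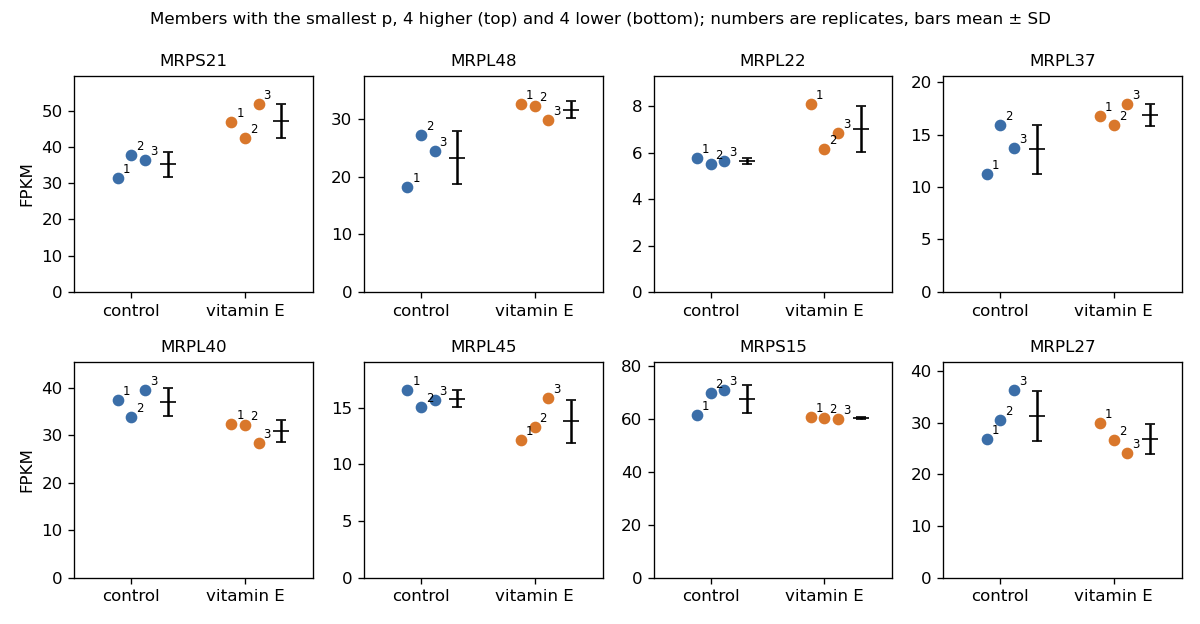
FPKM in each library of the 4 higher members (top) and the 4 lower members (bottom) with the smallest p, with replicate numbers beside the points and the mean ± SD of 3 libraries as bars; each vertical axis starts at 0. The groups are separate for MRPS21, MRPL48, MRPL22, MRPL37, MRPL40 and MRPS15 and overlap for MRPL45 and MRPL27.

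At the exit tunnel, MRPL22 had 5.79, 5.52 and 5.62 FPKM in controls and 8.09, 6.15 and 6.84 FPKM with vitamin E, with separate groups and a difference of 0.27 ± 0.12, or 0.17 without vitamin E replicate 1. MRPL45, which in mammals holds the ribosome to the inner membrane where products are inserted, had 16.6, 15.1 and 15.7 FPKM in controls and 12.2, 13.3 and 15.9 FPKM with vitamin E. Those groups overlapped, with a difference of -0.19 ± 0.13. MRPL44, a protein with a ribonuclease III fold, differed by -0.17, and the tunnel proteins MRPL23, MRPL24 and MRPL4 by 0.0048, 0.067 and -0.054.

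MRPL27, whose bacterial counterpart reaches the catalytic centre, had 26.8, 30.5 and 36.4 FPKM in controls and 29.9, 26.7 and 24.1 FPKM with vitamin E, a difference of -0.20 ± 0.15 with overlapping groups, or -0.092 without control replicate 3. MRPL27 overlaps EME1 on the opposite strand. MRPL15, another protein with a bacterial counterpart, had 24.7, 25.2 and 28.0 FPKM against 35.1, 24.5 and 45.1 FPKM, and its difference of 0.37 ± 0.21 came with vitamin E libraries that were both the lowest and the highest of the 6. Without vitamin E replicate 2 it was 0.60, with an unadjusted p of 0.00953 in limma, and without vitamin E replicate 3 it was 0.17. MRPL37, a mitochondria-specific protein, had 11.2, 15.9 and 13.7 FPKM against 16.8, 15.9 and 17.9 FPKM. Its lowest vitamin E library was only just above its highest control. The difference was 0.31 ± 0.14, and 0.18 without control replicate 1.

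The stalk of the large subunit, which recruits translation factors, is represented by MRPL10, MRPL12, MRPL53 and MRPL54. MRPL12, which in mammals has also been found with the mitochondrial RNA polymerase, was among the steadiest members, from 33.8 to 39.7 FPKM over all 6 libraries and a difference of 0.038. MRPL53, MRPL54 and MRPL10 differed by 0.056, 0.017 and -0.12, and the groups of all 4 genes overlapped. The remaining named members, MRPL55 and MRPL28, counterparts of bacterial proteins, differed by -0.15 each, also with overlap.

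Members with bacterial counterparts and members found only in mitochondria were compared as classes. MRPS18A was counted in the second class and MRPS18C in the first. The 43 tested members of the first class had a median difference of 0.023, and the 24 of the second, leaving out MRPS36, had a median of 0.14. Each class held 1 member with an unadjusted p under 0.05, which is 2.33% and 4.17% of them, against 9.11% of all tested genes. Without control replicate 1 these medians were -0.058 and 0.024, where that of all tested genes was 0.036. Without vitamin E replicate 1 they were 0.0075 and 0.019, where that of all tested genes was 0.02. The first class turned to -0.0058 with trimmed mean and -0.0066 with median-of-ratios scaling, which moved the median of all tested genes to -0.0053 and -0.006. No test of the difference between the classes was made.

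A single control library was low across the members. Control replicate 1 was the lowest of the 6 libraries in 38 of the 68 members (55.9%), where it was the lowest in 20.3% of all tested genes, and 54 members were below their mean there. Vitamin E replicate 1 was the highest in 25 members (36.8%), against 19.8% of all tested genes. The median deviation of the members from their mean over the 6 libraries was -0.17, 0.042 and 0.011 on the log2(FPKM + 1) scale in controls and 0.14, -0.036 and -0.0053 with vitamin E. The members thus spread as widely within each group as between the groups. Their summed level was 1729.9, 2026 and 1974 FPKM in controls and 2101, 1924 and 1963 FPKM with vitamin E.

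The small positive median difference depended on that low control library. Without control replicate 1 the median of the members was -0.026, that of the MRPL genes went from 0.038 to -0.028 and that of the MRPS genes from 0.12 to -0.012. Without vitamin E replicate 1 the medians of the members, the MRPL genes and the MRPS genes were 0.0088, -0.017 and 0.043. Several other measures set control replicate 1 apart. It was the deepest library, and the smooth muscle gene CNN1 had 141 FPKM there against 9.91 to 22.0 FPKM in the others. CNN1 does not stand for the smooth muscle markers as a set. ACTA2, TAGLN and MYH11 lay within the range of the other libraries there, and RGS5 was at its lowest there, at 59.3 FPKM. The summed level of 7 slow-fibre markers was 5756 FPKM there against 9094 to 10579 FPKM, nearly all of it from TNNC1. The low sum therefore describes TNNC1 and not the slow-fibre markers as a set. Of the other markers in that sum, MYOZ2 and ATP2A2 were highest in control replicate 1, and TNNI1 lay within the range of the other libraries. The part of these measures in the low values of the members was not tested.

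**Figure D4:**
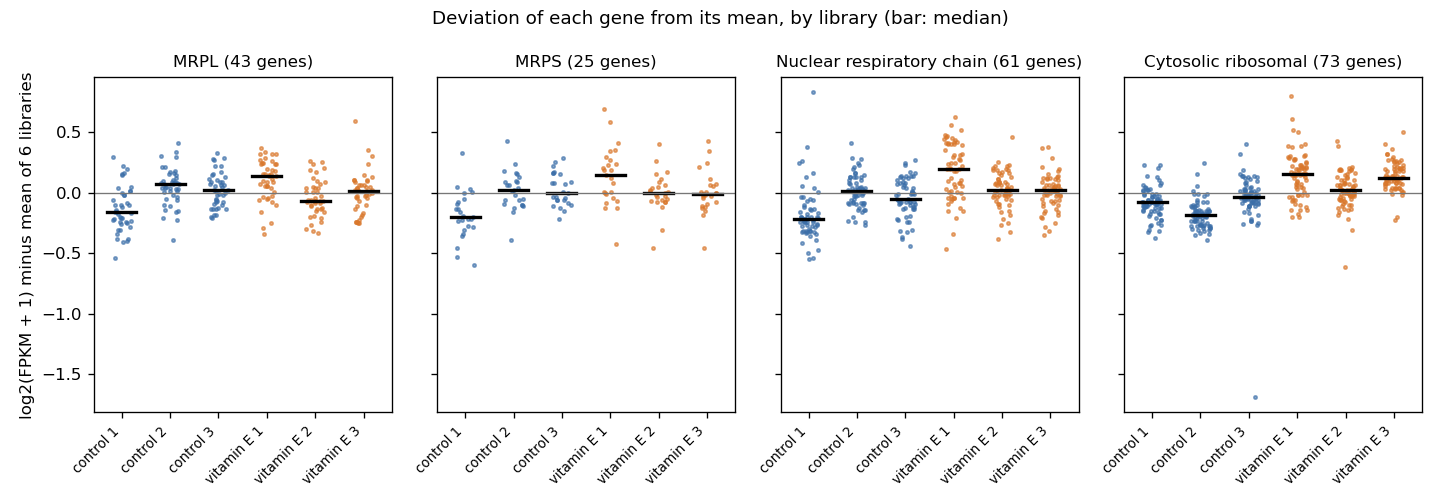
Deviation of each tested gene from its own mean over the 6 libraries on the log2(FPKM + 1) scale, by library, with medians as bars. The panels are MRPL genes, MRPS genes, nuclear respiratory chain and ATP synthase subunits, and cytosolic ribosomal proteins. Control replicate 1 is low in the first 3 panels, with medians of -0.17, -0.20 and -0.22, and the cytosolic ribosomal genes are lowest in control replicate 2, at -0.18.

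Genes named for nuclear subunits of the respiratory chain and ATP synthase, partners of the proteins that the mitochondrial ribosome makes, showed the same low library. They are called the respiratory chain list here. Control replicate 1 was the lowest in 41 of 61 of them (67.2%), and their median deviations were -0.22, 0.017 and -0.047 in controls and 0.20, 0.023 and 0.019 with vitamin E. Cytosolic ribosomal protein genes followed another order, with medians of -0.078, -0.18 and -0.034 in controls and 0.16, 0.021 and 0.12 with vitamin E, so that all 3 vitamin E libraries were above all 3 controls. The median difference between diets was 0.14 for the respiratory chain list and 0.18 for the cytosolic list, with 5 of 61 and 16 of 73 members higher at an unadjusted p under 0.05, 0 lower in either, and 0 called after adjustment. The higher members make up 8.20% and 21.9% of the lists, where 5.97% of all tested genes were higher and 3.14% lower. In the first list ATP5E, NDUFA1 and COX7A2 had the smallest p, with differences of 0.53, 0.44 and 0.43, and in the second RPL3, RPL29 and RPS19, with 0.53, 0.41 and 0.48. Without control replicate 1 these medians were 0.077 and 0.19. Whether the lists differ from one another was not tested.

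The spread among libraries was modest. Within a group, the median coefficient of variation among the 3 libraries was 12.1% in controls and 11.9% with vitamin E, where it was 15.6% and 12.9% over all tested genes. Over all 6 libraries, the highest was under 2-fold above the lowest in 66 of the 68 members, against 75.3% of all tested genes. The exceptions were MRPS10 (2.53-fold) and MRPS25 (2.03-fold). Neither comparison was matched for level, where the median was 22.9 FPKM for the members and 6.70 FPKM for all tested genes. MRPS25, which overlaps RBSN on the opposite strand, had 16.7, 14.4 and 23.0 FPKM in controls and 29.2, 15.3 and 20.0 FPKM with vitamin E. MRPS6 was similarly uneven, at 15.5, 21.3 and 13.2 FPKM and 11.3, 20.9 and 13.6 FPKM, with high values in replicate 2 of both groups.

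Some mitoribosomal proteins carry other names and were described from a separate list. DAP3 (a GTP-binding protein), PTCD3, CHCHD1 and AURKAIP1 of the small subunit and GADD45GIP1 and ICT1 of the large subunit were all tested, and 0 of the 6 passed either threshold. Over all tested genes, 9.11% had an unadjusted p under 0.05 and 0% were called after adjustment. DAP3 had 28.5, 33.7 and 25.2 FPKM in controls and 32.1, 31.1 and 35.5 FPKM with vitamin E, with a log2 difference of 0.17. PTCD3 had 11.3, 11.3 and 11.8 FPKM against 14.8, 12.8 and 12.2 FPKM, without overlap and with a difference of 0.19. The authors' deposited annotation also describes rows with other names as mitoribosomal. Of these, the row described as L36 had 7.25, 11.5 and 9.41 FPKM in controls against 10.2 to 15.5 FPKM with vitamin E, with overlap. That described as L52 had control values of 24.3, 31.7 and 25.1 FPKM against 21.0, 27.9 and 31.9 FPKM, and that described as S30 was at 0.153 FPKM at most. The rows RP11-455G16.1 and LOC107052985, both described as L42, ranged from 5.19 to 7.64 FPKM and from 0.847 to 1.85 FPKM. C9ORF116, described as S2, is given above with MRPS2.

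Genes that build and run the mitochondrial ribosome were described from further lists. Of 19 tested assembly and rRNA modification genes, 0 had an unadjusted p under 0.05, against 9.11% of all tested genes, and the median difference was 0.041. The one with the smallest p was MPV17L2, an inner membrane protein that associates with the large subunit, at 9.49, 9.47 and 7.83 FPKM in controls and 11.1, 9.75 and 11.4 FPKM with vitamin E. The GTPase gene GTPBP10 and the rRNA methyltransferase gene FTSJ2 differed by -0.26 and -0.17. Among 14 translation factors and related genes the median was 0.058. At an unadjusted p under 0.05, 1 (7.14%) was higher, against 5.97% of all tested genes. This was SLIRP, which stabilizes mitochondrial mRNAs, at 25.9, 27.2 and 25.6 FPKM in controls and 34.0, 28.8 and 33.4 FPKM with vitamin E (adjusted p = 0.529 in limma). MTFMT, which makes the formylated initiator tRNA, differed by 0.29 and GTPBP3 by 0.20.

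The 17 genes of mitochondrial DNA transcription, replication and RNA processing had a median of 0.032. At an unadjusted p under 0.05, 1 (5.88%) was higher, against 5.97% of all tested genes. TFB2M, the initiation factor of mitochondrial transcription, had 8.37, 8.34 and 8.29 FPKM in controls and 13.1, 10.7 and 9.22 FPKM with vitamin E, without overlap (difference 0.35 ± 0.14, SE; adjusted p = 0.522 in limma). FASTKD1 and PTCD2 differed by 0.26 and 0.24. Of 9 tested regulators of mitochondrial gene expression, the median was 0.019, and 1 (11.1%) was higher at that p, against the same background. This was the coactivator gene PPARGC1B. It was near the detection filter, at 0.893, 1.20 and 0.796 FPKM in controls and 1.58, 1.76 and 1.28 FPKM with vitamin E. The transcription factors NRF1 and GABPA, which bind promoters of mitochondrial protein genes in mammals, differed by 0.037 and -0.023, YY1 by -0.22 and MYC by -0.37. Without control replicate 1, the highest library of both YY1 and MYC, these 2 differences were -0.10 and 0.016. In each of these lists 0 members were called after adjustment. Without control replicate 1 the medians of the lists of other mitoribosomal proteins, of assembly genes and of translation factors were -0.046, -0.0087 and 0.0026, while those of the transcription and RNA processing genes and of the regulators were 0.049 and 0.058. The median of the regulators turned to -0.066 when control replicate 2 was left out and to -0.062 when vitamin E replicate 2 was. The medians of the assembly genes and the translation factors were -0.024 and -0.00087 without vitamin E replicate 1.

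**Figure D5:**
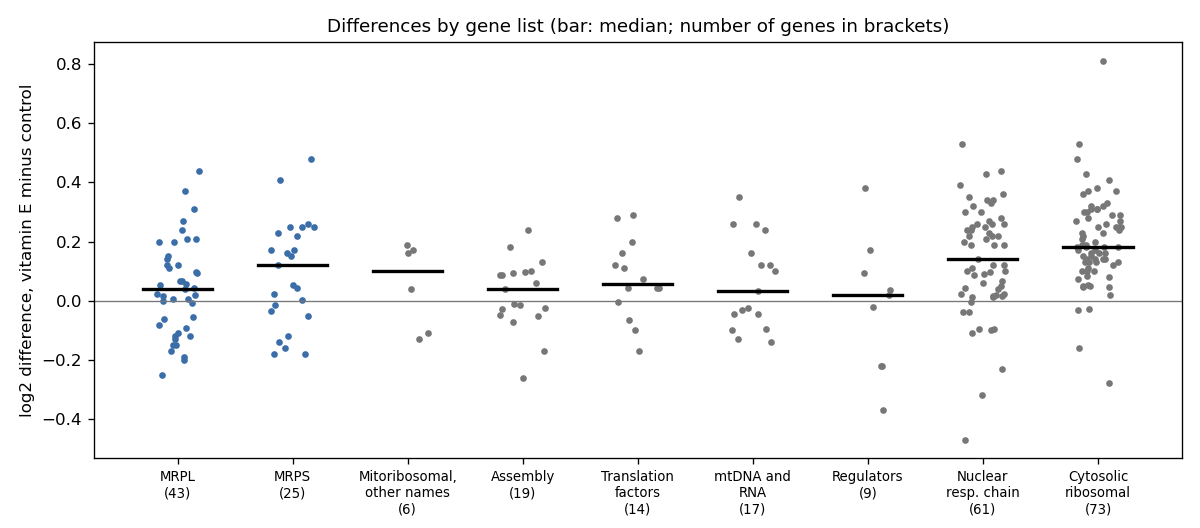
Log2 difference, vitamin E minus control on the log2(FPKM + 1) scale, of each tested gene in the MRPL and MRPS groups and in 7 related lists, with the median of each list as a bar. The medians of the lists of mitochondrial gene expression lie between 0.019 and 0.12, and those of the respiratory chain and cytosolic ribosomal lists are 0.14 and 0.18.

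The genes were scattered over 22 named chromosomes, with at most 9 on 1 of them, and 4 lay on sequence to which no chromosome was given. A start site within 1000 bases of the start of a gene on the opposite strand, transcribed away from it, was found for 19 of the 69 (27.5%). This arrangement was found for 21.4% of the 10811 tested protein-coding genes and 17.4% of all protein-coding genes in the table. In 1 such pair both genes were members: the starts of MRPS11 and MRPL46 on chromosome 10 lay 30 bases apart, with MRPS11 at 13171107 to 13174638 and MRPL46 at 13174668 to 13177215. MRPS11 had 32.9, 40.4 and 34.6 FPKM in controls and 42.8, 34.2 and 33.0 FPKM with vitamin E, and MRPL46 had 14.0, 17.5 and 17.8 FPKM and 18.4, 17.7 and 13.9 FPKM. Both groups overlapped in both genes, with differences of 0.022 and 0.018, and both genes were highest in vitamin E replicate 1.

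Other members had head-to-head partners that are not mitoribosomal. MRPL40 lay 160 bases from HIRA, a histone chaperone gene, which differed by -0.21 where MRPL40 differed by -0.25. MRPL22 lay 36 bases from GEMIN5, which differed by -0.14 where MRPL22 differed by 0.27. MRPL47 lay 95 bases from the respiratory chain gene NDUFB5, which differed by -0.23 where MRPL47 differed by 0.093. MRPL35 lay 96 bases from IMMT, a gene for the shape of the inner membrane, and they differed by -0.12 and 0.063. MRPS18C lay 34 bases from HELQ, which differed by 0.35 where MRPS18C differed by 0.25. MRPL37 lay 222 bases from CDCP2, which differed by 0.23 where MRPL37 differed by 0.31. Partners therefore differed in the same direction in some pairs and in opposite directions in others, and no partner named here had an unadjusted p under 0.05. Not all pairs are named here.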

How the data were processed

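The authors deposited 1 table of FPKM values, whose 6 library columns were matched to samples by title. The submitters' processing notes name TopHat2 2.0.12. For the read counter, annotation, genome build and strand, the sources used here give nothing. Start and end positions are the table's own, so their build is unknown. Each sequence record was named after the chromosome that RefSeq genes of the same symbols are on.

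Two-sided tests used limma 3.58.1 (R 4.3.3) with an intensity trend. They were run on log2(FPKM + 1) of 11320 genes that averaged 1 FPKM or more, with Benjamini-Hochberg adjustment over all of them and a threshold of 0.05. The pseudocount shrinks differences of weakly expressed genes. With 3 libraries a group an exact permutation p is never below 0.1, so none is given. Read numbers, lengths of genes and totals of libraries were recovered from the FPKM steps for 11320 of 11320 genes, at a relative tolerance of 1e-09. Reads are the smallest whole numbers that the ratios allow.

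The members and lists were chosen with earlier results of these data known. Named members are the 8 higher and 8 lower with the smallest p, the 4 highest and 4 lowest by level, and those under 1 FPKM. MRPS23, MRPS25, MRPS6, MRPL12, the other stalk and protuberance genes, the other tunnel genes and genes in head-to-head pairs were added for their role, position or spread after values were seen. For other lists up to 3 genes with the smallest p are named, and NRF1 and GABPA were added for their role. Names in the lists were matched to the table exactly, and 0 of 26 names of genes on mitochondrial DNA matched, so those genes were not analysed here. In the list of transcription, replication and RNA processing genes, C10orf2 was missed because the table spells it C10ORF2. Alternatives were pseudocounts of 0.1 and 0.5, no filter or a minimum of 5 FPKM, 3 scalings, limma without a trend or with library weights, a block for the replicate number, a covariate from a digit of the sample description, voom on the recovered reads, and leaving out each library. Leaving out libraries for genes of other lists, and subunits by structure, were added after seeing the data. The plots were made in matplotlib 3.10.9.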

Additional observations from a re-analysis of the deposited data

How the results depend on the processing

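No member was called under any of 12 other settings or without any of the 6 libraries. Over all genes, 2 were called with a minimum of 5 FPKM and 2 with voom on the recovered reads, against 0. Of 23 named members, 20 kept their sign throughout. MRPL9 turned to 0.00033 with quantile normalization and MRPL4 to 0.017 with library quality weights. Without single libraries MRPL9 ranged from -0.061 to 0.074, MRPL4 from -0.16 to 0.10 and MRPS14 from -0.012 to 0.15. A single library moved the difference of 18 of the 23 by over 1.5 times or turned it, and the 5 others were MRPL40, MRPS15, MRPS21, MRPS5 and MRPS9.

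At an unadjusted p under 0.05, the count of higher members ranged from 1 to 3 and that of lower members from 0 to 1 without single libraries, and 1 was lower with no filter and 1 with median-of-ratios scaling. The median of the members then ranged from -0.026 to 0.11, that of the MRPL genes from -0.028 to 0.084 and that of the MRPS genes from -0.012 to 0.15. Scaling was also applied to the counts without overlap, which was chosen after seeing the data. Of 7 higher members 4 were left with trimmed mean and 4 with median-of-ratios scaling, and of 3 lower ones 1 was left with quantile normalization. Control replicate 1 was the lowest library in 37 to 42 members under these settings. The shares of all tested genes under these scalings are not given here. These scaled counts are therefore no result about the members.

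With the replicate number as a block, 0 members were called, and 2 were higher at an unadjusted p under 0.05, as without it. The deviations of libraries with the same number correlated at -0.129, 0.149 and 0.0122, so the numbers were not taken to pair the libraries. The causes of these shifts were not tested. Depth limits MRPS34 and MRPS2 most, with as few as 6 and 46 reads in a library.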
